A study of Homo sapiens with 6 samples.

Results

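The genes described here encode the proteins of the cytosolic ribosome. They were chosen by name, as protein-coding genes whose symbol begins with RPL or RPS and a digit, or is RPLP0 to RPLP2, RPSA or FAU, leaving out the RPS6 kinases and RPS19BP1. This gave 91 of the 60676 genes in the tables, of which 78 are the canonical genes (32 of the small 40S subunit and 46 of the large 60S subunit), 10 are paralogs of canonical genes and 3 are readthrough loci that join a ribosomal protein gene to its neighbour. RACK1, which also encodes a ribosomal protein, carries another name and is given beside the members. The aim of the study was to find transcripts that respond to the loss of CyCoNP, a neural long noncoding RNA. It used SK-N-BE, a single human neuroblastoma line, transfected either with a scrambled small interfering RNA (si-SCR) or with a pool of small interfering RNAs against CyCoNP (si-CyCoNP). Both groups were differentiated for 1.5 days with 10 μM retinoic acid, with 3 libraries of total RNA in each group. The labels do not say that replicates were separate cultures, so p-values measure the spread between these libraries, which may be technical.

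A ribosome joins the ribosomal proteins to ribosomal RNA, nearly all in equal number, and the acidic proteins of the stalk, RPLP1 and RPLP2, are the ones present in several copies. The proteins are imported into the nucleolus, where assembly factors fit them onto the RNA that RNA polymerase I makes. Most of their messenger RNAs begin with a C and a run of pyrimidines, the terminal oligopyrimidine (TOP) tract, through which mTORC1 and LARP1 control their translation and stability.

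The starts of members that fell, rose or did not pass the test are shown because the TOP tract is the feature that most of these genes share and that the choice by name did not use. Those shown that fell all have a start of C and then 4 pyrimidines. RPL4, RPS28 and RPS7 also fell, have no such annotated start and are not shown, so the examples do not link the tract to the fall. Each line gives 15 bases before the annotated transcript start and 15 from it on, in the direction of transcription, with the longest run of C and T in capitals (RefSeq starts, GRCh38.p14).
RPL29 (fell, minus strand, chr3:51995881-51995910): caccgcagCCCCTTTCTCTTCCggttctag
RPL14 (fell, plus strand, chr3:40457324-40457353): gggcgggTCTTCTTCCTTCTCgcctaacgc
RPL7A (fell, plus strand, chr9:133348203-133348232): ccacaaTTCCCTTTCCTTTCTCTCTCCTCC
RPS18 (fell, plus strand, chr6:33272060-33272089): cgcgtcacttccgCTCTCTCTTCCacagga
RPL11 (rose, plus strand, chr1:23691791-23691820): cggaagctccgCTTTCTCTTCCTgctctcc
RPL22L1 (rose, minus strand, chr3:170870181-170870210): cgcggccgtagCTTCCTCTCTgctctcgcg
RPL26L1 (rose, plus strand, chr5:172958714-172958743): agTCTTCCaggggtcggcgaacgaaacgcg
RPLP1 (did not pass, plus strand, chr15:69452803-69452832): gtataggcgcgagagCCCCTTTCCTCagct
RPS12 (did not pass, plus strand, chr6:132814554-132814583): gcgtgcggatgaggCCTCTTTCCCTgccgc
RPL7L1 (did not pass, plus strand, chr6:42879601-42879630): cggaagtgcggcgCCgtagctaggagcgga

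A start with C followed by 4 bases that are each C or T, read on the transcript strand only, was found for 50 of the 73 members in the start table (68.5%), against 5.14% of all 27305 genes in it. A run of at least 7 C or T within the window was found for 82.2% of the members and 23.9% of all genes. Canonical genes held the C start in 74.6% of 63 cases, and paralogs in 2 of 8. Members with and without such a start had similar medians. The median log2 fold change was -0.21 over the 48 tested members that have it and -0.22 over the 20 that lack it, and 26 and 12 of them fell. Over the 655 tested genes that have the C start and are not members, the median was -0.019, and 18.8% were lower and 18.6% higher at an adjusted p under 0.05. The annotated start is not measured here, and RPL11, for example, also has an annotated start nearby with no such tract.

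The libraries held between 3762009 and 4799407 counted fragments, and 19519 to 20520 genes had a count. These totals are far below the number of reads that the study gives per sample, for a reason not given in the sources used here, so shares are of the counted fragments alone. For LINC02381, the gene of CyCoNP, si-SCR gave 274, 208 and 315 counts and si-CyCoNP gave 20, 30 and 12 (log2 fold change -3.78, SE 0.190, adjusted p = 6.95e-14). All 10 neuroblastoma markers examined were present above 1 FPKM (fragments per kilobase of gene, scaled to the total of counted fragments). Their summed level was 2871 to 3380 FPKM in si-SCR against 2289 to 2503 FPKM in si-CyCoNP, with 1 of 10 higher and 8 lower. Of 8 mesenchymal markers PRRX1 and COL1A2 were at 0, 1 was higher and 3 were lower of the 6 tested, and their sum was 57.4 to 65.4 FPKM in si-SCR against 52.2 to 59.2 FPKM in si-CyCoNP. Among all genes tested, 14.2% were higher and 14.2% lower at an adjusted p under 0.05. The part of the marker shifts in the results was not tested.

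Ribosomal protein mRNAs were lower as a group in si-CyCoNP. The members held 4.86%, 4.74% and 4.91% of all fragments counted in si-SCR, against 4.41%, 4.22% and 4.45% of those counted in si-CyCoNP. The groups did not overlap, and the means were 4.84% ± 0.0867 and 4.36% ± 0.120 (SD, n = 3). The share is one of the whole RNA of each library, in which less ribosomal protein mRNA per cell and fewer cells rich in it cannot be told apart. The signal recognition particle RNA RN7SL1, one of the most abundant transcripts, also took a smaller share in si-CyCoNP (3.91% ± 0.115 against 4.83% ± 0.256, SD, n = 3). Without it in the total, the members held 5.09% ± 0.0780 in si-SCR against 4.54% ± 0.129 in si-CyCoNP (SD, n = 3), so the shares lay further apart.

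**Figure D1:**
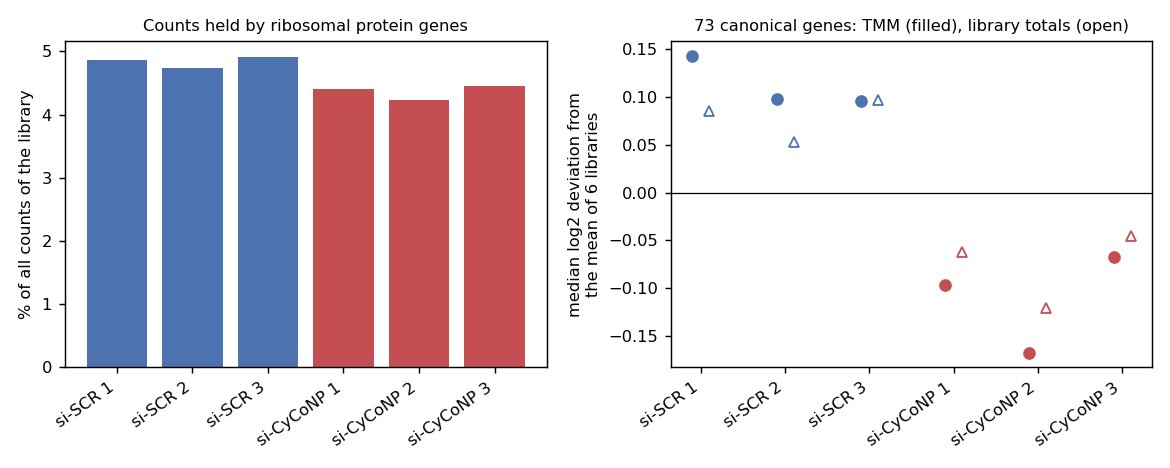
The left panel plots, for each of the 6 libraries, the percent of all counts held by the 91 ribosomal protein genes, which is 4.74 to 4.91 in si-SCR (blue) and 4.22 to 4.45 in si-CyCoNP (red). The right panel plots the median log2 deviation of 73 canonical genes from their mean over the libraries, with TMM scaling (filled circles) or library totals (open triangles), and the 3 si-SCR libraries lie above 0 and the 3 si-CyCoNP libraries below 0 on both.

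Gene by gene, 84 members passed the filter of a mean of at least 1 FPKM in either group and were tested with the quasi-likelihood test of edgeR. Of these, 46 fell and 4 rose at an adjusted p under 0.05, and 34 did not pass. Among all 13966 genes tested, 14.2% were lower and 14.2% were higher by the same rule. The median log2 fold change was -0.21 over the members, which is 86.3% of the si-SCR level, 0.0053 over all genes tested and -0.0067 over the protein-coding ones. Over the 260 other tested genes above 100 FPKM the median was -0.066, with 76 lower and 38 higher. The decreases were small and narrowly spread, from -0.20 to -0.55, with standard errors near 0.08, and by edgeR or DESeq2 none of them went beyond a log2 fold change of -1, which 2.98% of all genes tested did. One member, RPL26L1, went beyond 1, as did 2.28% of all genes tested.

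Read library by library, 61 members had all si-CyCoNP libraries below all si-SCR libraries on the TMM scale, against 20.0% of all genes tested, and 4 had all above, against 20.1%. All 46 members that fell and all 4 that rose were among them. On the deposited FPKM scale fewer stood apart downward, 49 members, with 44 of the 46 among them, and 5 stood apart upward. The share over all genes was not computed on that scale. The fall was present in each library. The median deviation of the 73 canonical genes with little exon overlap was 0.14, 0.0974 and 0.0960 on the log2 scale for si-SCR, and it was -0.0965, -0.17 and -0.067 for si-CyCoNP, so si-CyCoNP replicate 2 was the lowest. The number that fell depended on the libraries kept and on the scaling. Leaving out si-CyCoNP replicate 1, 2 or 3 gave 30, 25 or 37, and leaving out si-SCR replicate 1, 2 or 3 gave 31, 32 or 49. The calls over all genes moved too. In the same order 1674, 1618 or 1662 and 1767, 1618 or 2224 of all genes were lower, against 1990 with all libraries. With library totals in place of TMM 25 members fell. With library totals 2454 of all genes were higher and 1575 lower, against 1981 and 1990 with TMM. The distance between the median of the members and that of all genes was -0.22 with either scaling. Scaling moves all genes of a library alike, so this distance could hardly change and says nothing on which scaling holds.

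**Figure D2:**
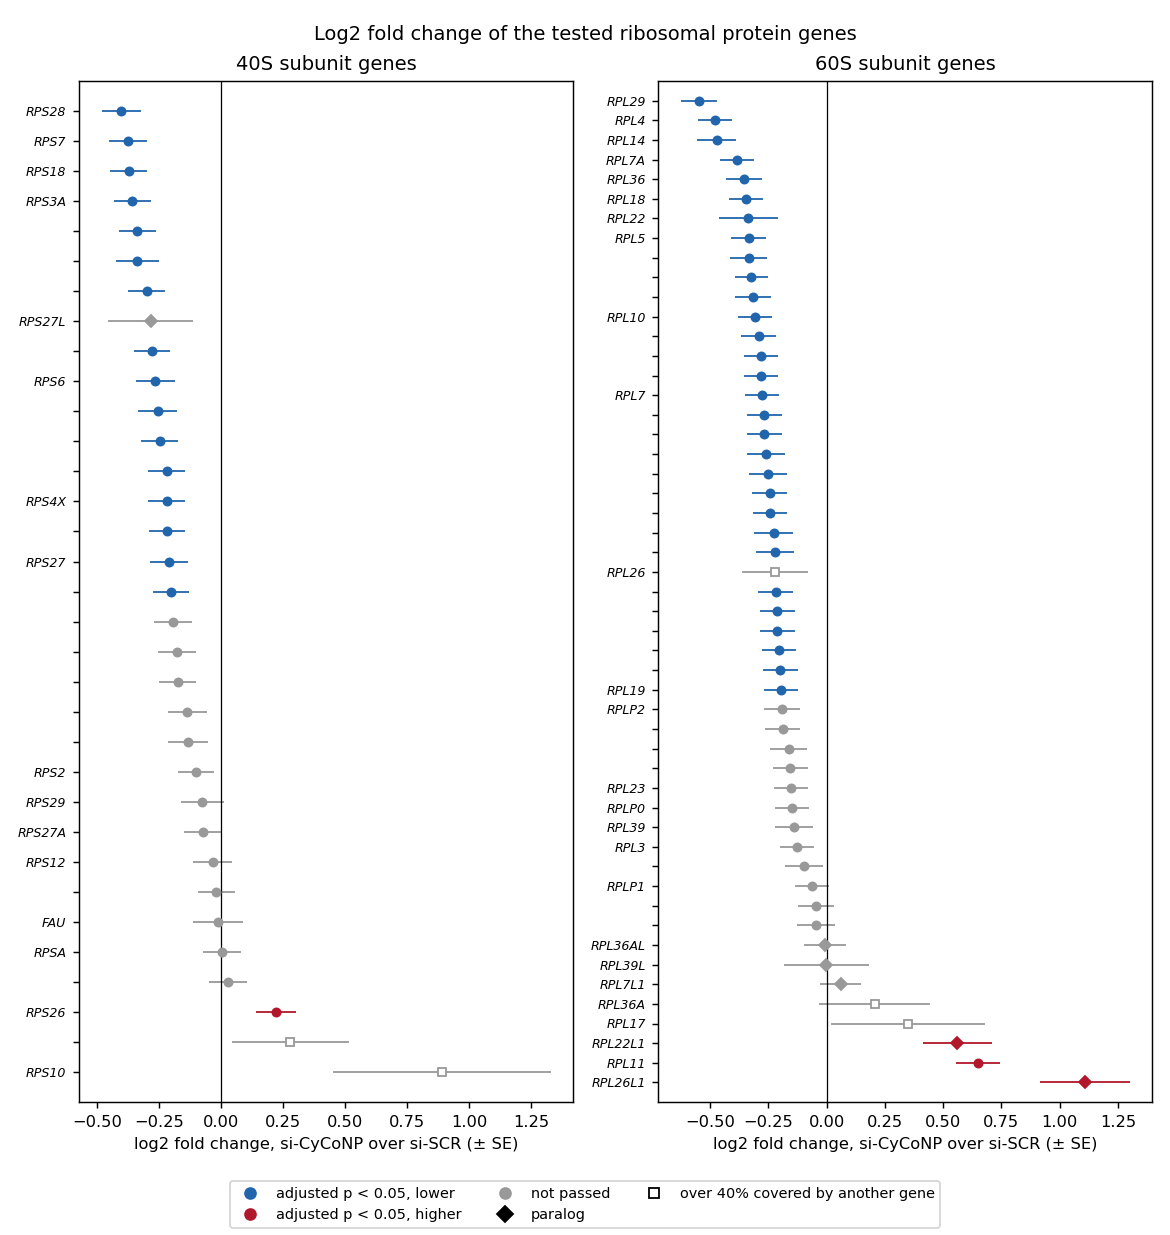
Each point is the log2 fold change of a tested member, si-CyCoNP over si-SCR, with its standard error, for the 33 genes of the 40S subunit (left) and the 51 of the 60S subunit (right). Blue points fell, red points rose and grey points did not pass, diamonds are paralogs, and open squares are the 5 canonical genes covered by more than 40% by exons of another gene, whose errors are the widest among canonical genes. Gene names are drawn for the members named in the text.

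Both subunits took part. Of the 46 canonical 60S genes, 30 fell and 1 rose, with a median log2 fold change of -0.23. Of the 32 canonical 40S genes, 16 fell and 1 rose, with a median of -0.20. Whether the subunits differ was not tested.

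RPL29, a small 60S protein at the surface of the subunit, had the smallest p among the members. Its level was 197, 207 and 201 FPKM in si-SCR against 149, 138 and 146 FPKM in si-CyCoNP. The groups lay far apart relative to their spread, with means of 202 ± 5.09 and 144 ± 5.67 FPKM (SD, n = 3) and a log2 fold change of -0.55 (SE 0.0775, adjusted p = 3.8e-06). RPL4, whose long extension reaches into the peptide exit tunnel, had 321, 305 and 305 FPKM in si-SCR against 245, 222 and 233 FPKM in si-CyCoNP. Its libraries did not overlap, and it fell by 0.48 on the log2 scale (SE 0.0739, adjusted p = 1.3e-05). RPL14, another 60S protein, had 42.5, 42.0 and 39.4 FPKM against 32.4, 29.0 and 32.1 FPKM. Its groups also stood apart, with a log2 fold change of -0.47 (SE 0.0817, adjusted p = 5.94e-05).

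A further 3 of the 60S genes were among the 10 members that fell with the smallest p. RPL7A, whose gene hosts small nucleolar RNAs in its introns, had 622, 632 and 613 FPKM in si-SCR against 527, 472 and 499 FPKM in si-CyCoNP (log2 fold change -0.39, SE 0.0742, adjusted p = 0.000224). RPL18 had 175, 185 and 182 FPKM against 144, 155 and 148 FPKM (-0.35, SE 0.0739, adjusted p = 0.000716). RPL36 had 262, 239 and 253 FPKM against 203, 199 and 215 FPKM (-0.35, SE 0.0770, adjusted p = 0.000855). In all 3 genes the highest si-CyCoNP library stayed below the lowest si-SCR library.

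The 40S genes among them were RPS28, RPS18, RPS7 and RPS3A. RPS28, a small protein near the exit of the mRNA channel, had 139, 137 and 139 FPKM in si-SCR against 106, 115 and 107 FPKM in si-CyCoNP (log2 fold change -0.40, SE 0.0786, adjusted p = 0.000259). RPS18, a protein of the 40S head, had 551, 540 and 533 FPKM against 455, 417 and 445 FPKM (-0.37, SE 0.0745, adjusted p = 0.000364). These 2 had si-SCR libraries within a narrow range and all si-CyCoNP libraries below it. RPS7 had 135, 126 and 129 FPKM against 110, 97.8 and 107 FPKM (-0.37, SE 0.0776, adjusted p = 0.000518). RPS3A, which contacts the initiation factor eIF3, had 328, 331 and 324 FPKM against 272, 255 and 277 FPKM (-0.36, SE 0.0750, adjusted p = 0.000583). Their groups did not overlap either. These 10 genes lie on 7 different chromosomes and are found on both strands (RPL29 at chr3:51993522-51995895 on the minus strand, RPL4 at chr15:66498015-66524532 on the minus strand, RPL7A at chr9:133348218-133351426 on the plus strand, RPS18 at chr6:33272075-33276511 on the plus strand, GRCh38), and all of them kept an adjusted p under 0.05 in each of the 16 alternative fits.

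**Figure D3:**
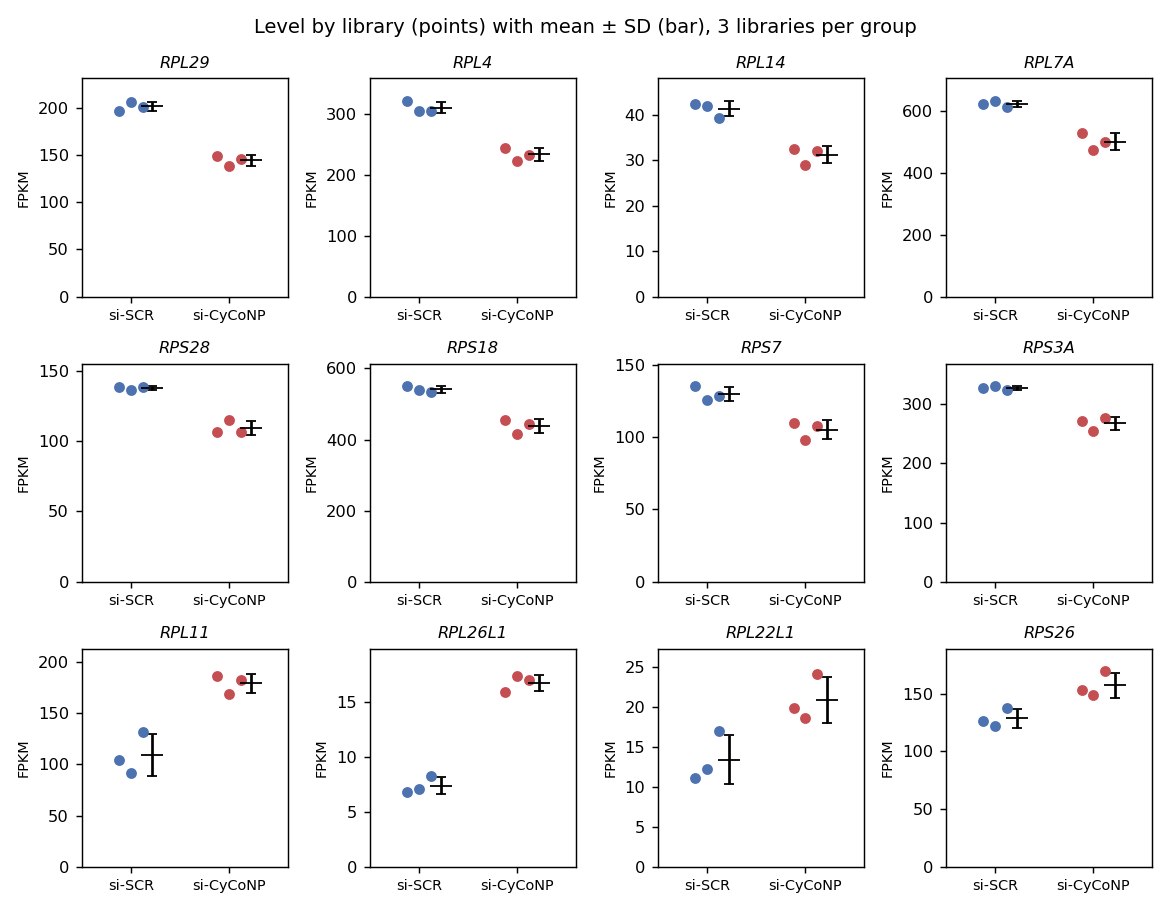
Each panel plots the FPKM of a gene in the 3 si-SCR (blue) and 3 si-CyCoNP (red) libraries, with the mean and standard deviation beside them and axes that start at 0. In the upper 8 panels all si-CyCoNP points lie below the si-SCR points, and in the lower 4 panels, RPL11, RPL26L1, RPL22L1 and RPS26, all lie above.

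Another 4 members went the other way. RPL11, which with RPL5 and 5S ribosomal RNA forms the particle that binds the p53 regulator MDM2, had 105, 91.2 and 131 FPKM in si-SCR against 187, 169 and 182 FPKM in si-CyCoNP. The groups did not overlap, and si-SCR replicate 3 was the control nearest to the knockdown. It rose with a log2 fold change of 0.65 (SE 0.0946, adjusted p = 5.8e-06), a 1.57-fold increase. RPL5, its partner in that particle, fell, from 148, 149 and 145 FPKM to 127, 116 and 123 FPKM (-0.34, SE 0.0764, adjusted p = 0.00135). The ratio of RPL11 to RPL5, a pair chosen after the values were seen, was 0.708, 0.612 and 0.910 in the si-SCR libraries and 1.47, 1.45 and 1.48 in the si-CyCoNP libraries. RPL11 lies at chr1:23691742-23696835 on the plus strand and shares no exon with another gene on its strand.

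RPL26L1, a paralog of RPL26 that differs from it at few residues, changed most. It had 6.80, 7.08 and 8.26 FPKM in si-SCR against 15.9, 17.4 and 17.0 FPKM in si-CyCoNP. Every knockdown library lay well above every control, and the log2 fold change was 1.11 (SE 0.193, adjusted p = 6.71e-05), a 2.16-fold increase. RPL22L1, a paralog of RPL22 which is an RNA-binding protein of the 60S surface, had 11.1, 12.2 and 16.9 FPKM against 19.8, 18.6 and 24.1 FPKM. Its groups were close, with si-SCR replicate 3 at 16.9 FPKM and si-CyCoNP replicate 2 at 18.6 FPKM, and the log2 fold change was 0.56 (SE 0.148, adjusted p = 0.00506). RPS26, a 40S protein near the mRNA exit, had 126, 122 and 138 FPKM against 154, 149 and 169 FPKM. It rose by the smallest amount of the 4, 0.22 on the log2 scale (SE 0.0816, adjusted p = 0.0428), and it lost the call with DESeq2 and without si-SCR replicate 1 or 2 or si-CyCoNP replicate 1 or 3 (adjusted p up to 0.266).

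The paralogs were set beside their canonical partners. RPL22 fell while its paralog rose, with 10.6, 10.3 and 9.05 FPKM in si-SCR against 8.31, 7.36 and 9.10 FPKM in si-CyCoNP (log2 fold change -0.34, SE 0.126, adjusted p = 0.0457). On the FPKM scale its groups touched, since si-CyCoNP replicate 3 reached si-SCR replicate 3. Its call was lost without si-SCR replicate 1 or 2 or si-CyCoNP replicate 1 or 2, with DESeq2 and with library totals (adjusted p up to 0.206). The ratio of RPL22L1 to RPL22 was 1.05, 1.19 and 1.87 in si-SCR against 2.38, 2.52 and 2.65 in si-CyCoNP. RPL7, RPL10, RPS4X and RPS27 also fell among the 9 partners, by 0.28, 0.31, 0.22 and 0.21 on the log2 scale, and the calls of RPS4X and RPS27 were lost with library totals and without si-SCR replicate 2, si-CyCoNP replicate 1 or si-CyCoNP replicate 2 (for RPS4X also without si-SCR replicate 1). RPL3, RPL39, RPL26 and RPL36A did not pass, with log2 fold changes of -0.13, -0.14, -0.22 and 0.21. No other paralog passed. RPL7L1, a nucleolar paralog of RPL7, was at 0.060 on the log2 scale (95% interval -0.12 to 0.24). RPL36AL, a paralog of RPL36A, had 165 to 196 FPKM in si-SCR against 172 to 192 FPKM in si-CyCoNP, and its interval of -0.19 to 0.18 leaves room for small changes either way. RPL39L, known from testis, had 12.8 to 16.8 FPKM and 13.7 to 17.0 FPKM, with an interval from -0.38 to 0.38, and RPS27L, a p53 target, had -0.28 with an interval from -0.63 to 0.069. RPL3L, the paralog of striated muscle, lay under the filter at no more than 0.512 FPKM, RPL10L and the 3 readthrough loci had no count, and the Y-linked members enter the counts only.

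Some members did not pass the test. The stalk that recruits elongation factors is built from RPLP0, RPLP1 and RPLP2, and none of the 3 passed with edgeR or DESeq2, with 1 lower at an unadjusted p under 0.05, as were 18.5% of all genes tested. On the TMM scale all 3 had every si-CyCoNP library below every si-SCR library, as had 20.0% of all genes tested. On the FPKM scale the groups of RPLP0 and RPLP1 overlapped and those of RPLP2 did not. RPLP0 had 420, 415 and 452 FPKM in si-SCR against 408, 385 and 422 FPKM in si-CyCoNP (log2 fold change -0.15, interval -0.30 to 0.00, adjusted p = 0.134). RPLP1 had 277, 287 and 279 FPKM against 284, 281 and 281 FPKM (-0.062, interval -0.21 to 0.086, adjusted p = 0.567). RPLP2 had 273, 243 and 257 FPKM against 241, 230 and 239 FPKM (-0.19, interval -0.35 to -0.032, adjusted p = 0.067). Whether these 3 differ from the rest was not tested, and the intervals of RPLP0 and RPLP2 include the median of the members, while that of RPLP1 ends just above it.

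RPS27A, made as a ribosomal protein joined to ubiquitin, and FAU, joined to a ubiquitin-like domain, did not pass either with edgeR or DESeq2, and neither had an unadjusted p under 0.05. RPS27A had 124, 124 and 128 FPKM against 129, 118 and 128 FPKM (log2 fold change -0.072, adjusted p = 0.529). FAU had 47.7, 43.3 and 48.4 FPKM against 44.7, 51.1 and 49.1 FPKM (-0.014, adjusted p = 0.941). The libraries of both genes overlapped on the FPKM scale. On the TMM scale those of FAU overlapped too, but RPS27A had every si-CyCoNP library below every si-SCR library, as had 20.0% of all genes tested. RACK1, the signalling scaffold on the 40S head, fell from 205, 205 and 190 FPKM to 156, 153 and 153 FPKM (-0.44, SE 0.0746, adjusted p = 4.37e-05).

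Some of the most abundant members came next. RPS2, the highest at a mean of 1099 FPKM, had 1137, 1067 and 1131 FPKM in si-SCR against 1052, 1076 and 1132 FPKM in si-CyCoNP (log2 fold change -0.10, adjusted p = 0.334). RPS27 at 693 FPKM and RPL19 at 629 FPKM fell by 0.21 and 0.20 on the log2 scale, and both calls were lost with library totals and without si-SCR replicate 2, si-CyCoNP replicate 1 or si-CyCoNP replicate 2, that of RPL19 also without si-SCR replicate 1 or si-CyCoNP replicate 3. RPS12 at 759 FPKM had 772, 730 and 750 FPKM against 770, 712 and 822 FPKM, with overlapping groups (-0.034, adjusted p = 0.79). Across the 73 canonical genes with little overlap, the rank correlation of the log2 fold change with the level was -0.068 and with the number of annotated pseudogenes -0.091, as descriptions over genes that share their libraries.

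The levels were read beside the exon overlap of the genes, and the part of the counting in their order was not tested. Among the canonical genes the median level was 163 FPKM and 59 of 78 lay above 100 FPKM, but the 4 lowest of the tested members, RPS10 (1.33 FPKM), RPL17 (1.79 FPKM), RPS27L (1.99 FPKM) and RPL36A (2.36 FPKM), include 3 whose transcripts lie in exons of another gene on the same strand. The share of the canonical transcript that is covered so was 84.0% for RPS10 (by the readthrough locus RPS10-NUDT3), 96.9% for RPL17 and 43.8% for RPL36A. RPL26, covered by 65.3%, had 12.8 FPKM. Gene counting drops fragments that fit more than 1 gene, and the 73 canonical genes covered by at most 40% ranged from 9.11 to 1099 FPKM. None of the 5 covered genes passed the test with edgeR or DESeq2, nor an unadjusted p of 0.05. RPS10, which passed the filter on low values only through si-CyCoNP, had 1.01, 0.577 and 1.09 FPKM in si-SCR against 1.90, 2.56 and 0.838 FPKM in si-CyCoNP, with overlapping groups and a log2 fold change of 0.89 (SE 0.440, adjusted p = 0.141). FPKM was also divided by the length of all annotated exons, which was 1.00 to 33.4 times that of the canonical transcript (33.4 for RPS29), so levels of different members are not ratios of molecules.

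**Figure D4:**
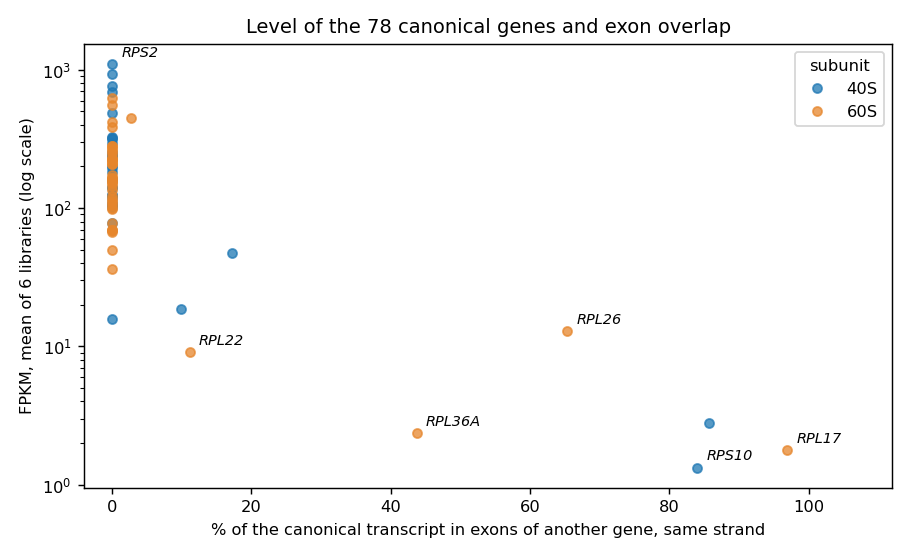
Each point is one of the 78 canonical genes, with the percent of its canonical transcript that lies in exons of another gene on the same strand on the horizontal axis and its mean FPKM over 6 libraries on a logarithmic vertical axis. The 5 genes covered by more than 40% lie between 1.33 and 12.8 FPKM, under nearly all of the others.

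Mutations of many of these genes cause Diamond-Blackfan anaemia, an inherited failure of red cell production. Of the 18 such genes examined, 10 fell (55.6%) and 2 rose (11.1%), RPL11 and RPS26, with a median log2 fold change of -0.22. All 18 are members, and of all 84 tested members 54.8% fell and 4.76% rose, with a median of -0.21. The share that fell was thus near that of the members as a whole, against 14.2% of all genes tested. Leaving out si-CyCoNP replicate 2 gave 5 of the 18 that fell, and leaving out si-SCR replicate 1 or si-CyCoNP replicate 1 gave 6. Only 1 rose when si-SCR replicate 1, si-SCR replicate 2 or si-CyCoNP replicate 1 was left out. RPS28, RPS7 and RPL18, given above, had the smallest p among those that fell.

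The genes around the ribosome were then read from lists of their pathway. Of 23 tested translation factors and other mRNAs known for TOP tracts, 9 were lower (39.1%) and 4 higher (17.4%). Among all genes tested 14.2% were lower and 14.2% higher. The median log2 fold change of the 23 was -0.20. Without si-CyCoNP replicate 2 the number lower was 5 and the median -0.12, and without si-SCR replicate 2 or si-CyCoNP replicate 3 the number higher was 2. The elongation factor EEF2, which moves the ribosome along mRNA, fell from 711, 696 and 711 FPKM to 630, 615 and 616 FPKM (-0.25, adjusted p = 0.00655). EIF2S3, a subunit of the initiation factor eIF2, and EIF3H, a subunit of eIF3, fell by 0.44 and 0.43 on the log2 scale (adjusted p = 8.68e-05 and 0.00106). EIF3F, another eIF3 subunit, rose from 4.39, 4.26 and 6.58 FPKM to 9.63, 9.18 and 9.31 FPKM (0.81, adjusted p = 1.06e-05).

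Ribosome assembly factors had a median on the other side of 0. Of 56 tested, 20 rose (35.7%) and none fell at an adjusted p under 0.05, against 14.2% and 14.2% of all genes tested. The median log2 fold change of the 56 was 0.24. At an unadjusted p under 0.05, 30 were higher and 0 lower, against 18.9% and 18.5% of all genes tested. DESeq2 gave 16 higher and 0 lower, against 10.7% and 11.4% of all genes tested. DKC1, the pseudouridine synthase of box H/ACA particles, had 18.8, 17.8 and 20.2 FPKM in si-SCR against 34.4, 30.3 and 32.9 FPKM in si-CyCoNP (0.71, adjusted p = 1.07e-06). GTPBP4, a GTPase of 60S assembly, rose by 0.64 (adjusted p = 6.28e-06). EMG1, which methylates 18S ribosomal RNA, rose by 0.73 (adjusted p = 1.71e-05), and LSG1, which releases the export adaptor NMD3 in the cytoplasm, by 0.56 (adjusted p = 4.86e-05).

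Chaperones that carry single ribosomal proteins had log2 fold changes above 0 in 8 of 8 cases, with a median of 0.17. Of all 13966 genes tested, 7064 lay above 0. Only 1 chaperone passed (12.5%, and 2 without si-SCR replicate 2 or 3), against 14.2% of all genes tested that were higher. It was BCCIP, which binds RPL23 (0.39, adjusted p = 0.00292). RPS19BP1, TSR2 (a carrier of RPS26) and AAMP had 0.26, 0.35 and 0.18 (adjusted p = 0.0513, 0.0529 and 0.194). Of 20 subunits and factors of RNA polymerase I, 6 rose (30%) and 2 fell (10%), against 14.2% and 14.2% of all genes tested. The median of the 20 was 0.20, and 3 rose without si-SCR replicate 2. Of the 2 that fell, 1 was left without si-SCR replicate 1 or 3 and 0 without si-CyCoNP replicate 2. POLR1A, the largest subunit, rose from 6.82, 5.88 and 6.59 FPKM to 9.36, 9.78 and 9.81 FPKM (0.52, adjusted p = 8.86e-05). TAF1D and TAF1C, of the promoter selectivity factor, and UBTF, which binds ribosomal DNA, rose by 0.37, 0.36 and 0.31 (adjusted p = 0.00133, 0.0138 and 0.0101).

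Of 17 tested genes of mTORC1, TOP control and MYC, 6 rose (35.3%) and 2 fell (11.8%), against 14.2% and 14.2% of all genes tested. The median of the 17 was 0.054, which was 0.0081 once si-SCR replicate 1 was left out and 0.085 once si-SCR replicate 3 was. Without si-SCR replicate 2 or si-CyCoNP replicate 1 the number that rose was 3, and the number that fell was 4 without si-SCR replicate 3, 2 without si-CyCoNP replicate 2 and 1 when any other single library was left out. MYCN, the amplified oncogene of many neuroblastomas, rose from 446, 408 and 430 FPKM to 872, 766 and 779 FPKM (0.84, SE 0.0764, adjusted p = 2.65e-09). AKT1S1, an inhibitor of mTORC1, and EIF4EBP2, an inhibitor of eIF4E, rose by 0.67 and 0.37 (adjusted p = 2.5e-05 and 0.00168). RPS6KB1, the kinase that phosphorylates RPS6, fell from 8.71, 8.84 and 9.10 FPKM to 5.63, 6.18 and 6.30 FPKM (-0.63, adjusted p = 5.05e-05).

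Among 19 noncoding host RNAs of small nucleolar RNAs and related transcripts, 7 rose (36.8%) and none fell, with a median of 0.17. Of all genes tested 14.2% were higher and 14.2% lower. At an unadjusted p under 0.05, 8 were higher and 1 was lower, against 18.9% and 18.5% of all genes tested. Without si-SCR replicate 1 the median was 0.068. DESeq2 gave 4 higher and 0 lower, against 10.7% and 11.4% of all genes tested. The fit without si-SCR replicate 2 also gave 4 higher and 0 lower, and 2 were higher without si-CyCoNP replicate 3. Without si-SCR replicate 3, 2 were lower. SNHG3 rose from 7.80, 8.26 and 9.46 FPKM to 11.9, 12.9 and 13.4 FPKM (0.51, adjusted p = 0.00182), and SNHG20, SNHG17 and CYTOR by 0.99, 0.35 and 0.59 (adjusted p = 0.00432, 0.0116 and 0.0124). SNHG20 and CYTOR passed the filter only through si-CyCoNP, the group in which they are higher, so their place in the count is no support for its direction. The proteins of the mitochondrial ribosome, made from a separate set of nuclear genes, had 8 higher (10.7%) and 1 lower (1.33%) of 75 tested. Both shares lay below the 14.2% higher and 14.2% lower of all genes tested. The median of this list was -0.021, and 5 were higher, with a median of 0.020, without si-CyCoNP replicate 2. Leaving out si-SCR replicate 3 gave 2 lower, and leaving out si-SCR replicate 1, si-CyCoNP replicate 1 or si-CyCoNP replicate 2 gave 0. MRPL42, MRPS34, MRPL4 and MRPS30 rose by 0.54, 0.63, 0.49 and 0.30 (adjusted p = 8.91e-05, 0.000177, 0.000873 and 0.0185).

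**Figure D5:**
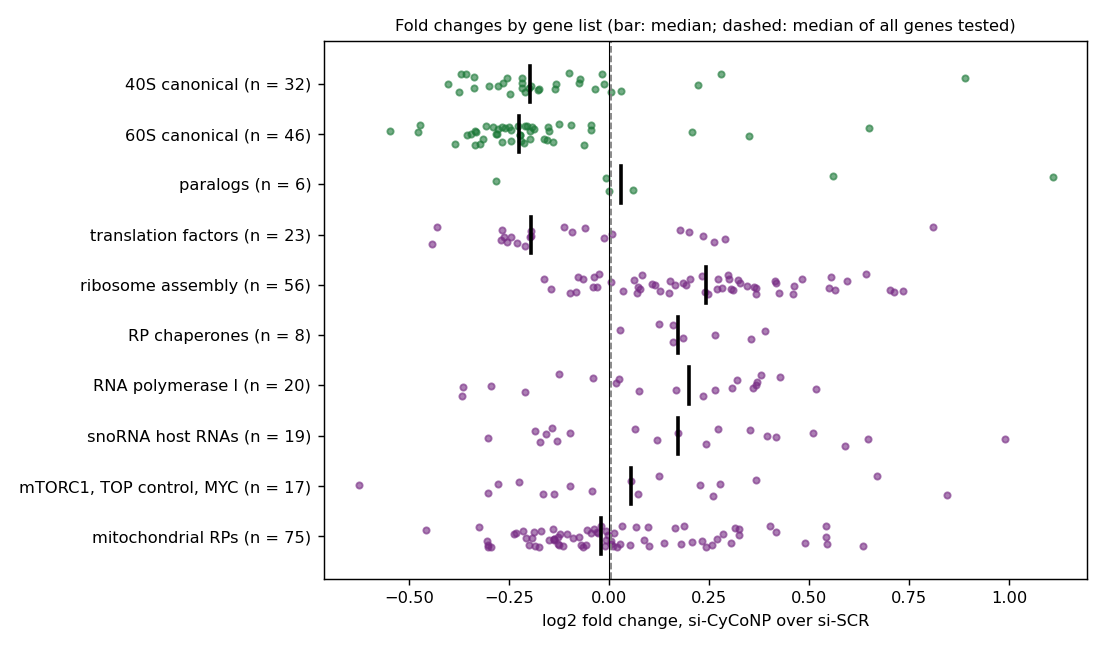
Each point is the log2 fold change of a tested gene, si-CyCoNP over si-SCR, with a line of points for each list, a black bar at the median of each list and a dashed line at the median of all genes tested (0.0053). The bars of the canonical 40S and 60S genes and of translation factors lie near -0.20, and those of ribosome assembly factors and RNA polymerase I near 0.20.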

How the data were processed

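RNA of 6 libraries was compared, 3 si-SCR and 3 si-CyCoNP, grouped by their titles. The authors trimmed reads with Trimmomatic 0.39 and Cutadapt 3.2, removed ribosomal RNA with Bowtie2 2.4.2 and aligned with STAR 2.7.7a to GRCh38, with Ensembl release 99. The deposited counts are raw numbers of uniquely mapping fragments per gene. The deposited FPKM values were scaled by the authors to gene length and library total. The FPKM tool is not given in the sources used here. Fragments shared with other genes or pseudogenes (1602 are named for members) are dropped, so the values of such members leave them out. How many were dropped is not known. Across the 73 canonical genes with little overlap, the rank correlation of level with the number of pseudogenes was -0.039. Genes inside exons of an opposite-strand gene had a count in 27.5% of cases, against 6.54% on the same strand.

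Genes with a mean of at least 1 FPKM in either group were tested with edgeR 4.0.16 in R 4.3.3 (TMM scaling, quasi-likelihood test, Benjamini-Hochberg adjustment over all genes tested). A gene passed at an adjusted p under 0.05. The study used DESeq2 with a log2 fold change beyond 1, and DESeq2 1.42.0 was an alternative here, beside limma 3.58.1 on log2(FPKM + 1) and log2(FPKM + 0.1). Other scalings and filters, a length offset, a block and leaving out each library were also tried. Standard errors come from the fit, and intervals use its 26.2 degrees of freedom. The script was tested on simulated data. The members and lists were chosen with earlier results of these data known. Mitochondrial ribosomal proteins were taken by symbol, and exon overlap was computed from GENCODE release 44, with a limit of 40% set after the levels were seen.

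Genes named were the paralogs and their partners, stalk and ubiquitin fusion genes, the up to 10 members with the smallest p in each direction, the 5 highest and 5 lowest by FPKM, members beyond a log2 fold change of 1, LINC02381, RACK1, and up to 4 genes with the smallest p of each other list. RPL5 and its ratio to RPL11, RPL3L, RPL10L and RPS29 were added after values were seen. Some genes that this rule names are not reported here. Between 3762009 and 4799407 fragments per library limit precision to the spread given by replicates. Removal of PCR duplicates is not given in the sources used here.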

Additional observations from a re-analysis of the deposited data

How the results depend on the processing

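The members kept a negative median in all 16 alternative fits, and 24 of the 46 that fell and 3 of the 4 that rose passed in each of them. Small changes near a log2 fold change of -0.20 are at the limit of what 3 libraries per group and the counted totals given above resolve. With library totals, log2(FPKM + 1) and log2(FPKM + 0.1), 25 members fell, and their median was -0.15, -0.14 and -0.14. At a log2 fold change beyond 1, 1 member was higher and 0 lower. Leaving out single libraries gave 25 to 49 members lower, 3 to 4 higher and medians from -0.23 to -0.19. Over all genes these fits gave 1618 to 2224 lower, against 1990 with all libraries. The share difference of -0.48 percentage points ranged from -0.53 to -0.41 without single libraries. With RN7SL1 left out of the total, an alternative chosen after seeing the data, it was -0.55. Which step moved these values was not tested.

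Replicate numbers were not shown to pair the libraries, since same-numbered deviations correlated with r of 0.0907, 0.0727 and 0.108, although each library correlated best with its own number. With the replicate block 53 members fell and 4 rose, with RPLP0 and RPLP2 of the stalk among those that fell. The block raised the calls over all 13966 genes too, to 2368 lower and 2402 higher, against 1990 and 1981 without it. The block also gave 3 ribosomal protein chaperones higher, and 1 snoRNA host, 5 mTORC1 and MYC genes and 3 mitochondrial ribosomal protein genes lower.

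In the order library totals, log2(FPKM + 1) and log2(FPKM + 0.1), medians were 0.31, 0.29 and 0.31 for assembly factors, 0.27, 0.25 and 0.27 for RNA polymerase I, 0.24, 0.23 and 0.27 for chaperones, 0.12, 0.12 and 0.12 for mTORC1 and MYC, 0.0453, 0.0361 and 0.0384 for mitochondrial ribosomal proteins, -0.13, -0.11 and -0.11 for translation factors, and -0.15, -0.15 and -0.15 for Diamond-Blackfan genes. In the same order 4, 4 and 4 translation factors, 5, 5 and 5 Diamond-Blackfan genes, 0, 1 and 1 RNA polymerase I genes, 1, 1 and 1 mTORC1 and MYC genes and 0, 0 and 0 mitochondrial genes were lower. Chaperones were higher in 3, 2 and 2 cases, and both FPKM fits gave 2 snoRNA hosts higher. With DESeq2, 1 Diamond-Blackfan gene, 4 snoRNA hosts and 3 mitochondrial genes were higher, and 0 RNA polymerase I, 1 mTORC1 and MYC and 0 mitochondrial genes were lower. Upper quartile scaling gave 3 chaperones higher, the filterByExpr filter and the length offset 2. With no filter 1 mTORC1 and MYC gene and 0 mitochondrial genes were lower, and the length offset also left 1 mTORC1 and MYC gene. The mTORC1 and MYC median was 0.0105 with no filter and 0.0237 with the length offset.

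Without single libraries the ranges were 1 to 2 higher, 5 to 10 lower and medians of -0.25 to -0.15 for Diamond-Blackfan genes, 2 to 6, 5 to 10 and -0.19 to -0.12 for translation factors, 0.21 to 0.26 for the median of assembly factors, 1 to 2 higher and 0.16 to 0.26 for chaperones, 3 to 6, 0 to 2 and 0.16 to 0.26 for RNA polymerase I, 3 to 5, 1 to 4 and 0.0081 to 0.0851 for mTORC1 and MYC, 2 to 8, 0 to 2 and 0.0684 to 0.25 for snoRNA hosts, and 5 to 7, 0 to 2 and -0.0468 to 0.0203 for mitochondrial ribosomal proteins.

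Genes that did not pass changed sign in some fits. With library totals, log2(FPKM + 1) and log2(FPKM + 0.1) FAU was at 0.0526, 0.0546 and 0.0556, RPL36AL at 0.0577, 0.0609 and 0.0612, RPL39L at 0.0641, 0.0728 and 0.0774, RPLP1 at 0.00545, 0.00549 and 0.00551 and RPS12 at 0.0328, 0.0308 and 0.0309. RPL39L was at 0.00295 with upper quartile scaling, 0.00364 with no filter and 0.00973 with the replicate block. Without single libraries the log2 fold changes ranged from -0.0543 to 0.0378 for FAU, -0.0447 to 0.0489 for RPL36AL, -0.0982 to 0.11 for RPL39L, -0.0134 to 0.13 for RPL7L1 and -0.0948 to 0.0220 for RPS12.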
